A study of Mus musculus with 8 samples.

Results

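The heat shock and chaperone genes of the mouse brain were followed in PMCAO, the permanent occlusion of a middle cerebral artery that serves as a model of stroke, and after injection of the neuropeptide PACAP38. The group was chosen by name as 10 genes, Hspa1a, Hspa1b, Hspa8, Dnajb1, Bag3, Hspb1, Cryab, Hspd1, Hspe1 and Hspa5, and every array probe carrying 1 of these names was taken. There were 18 such probes among 41174, and they covered 9 of the genes. Hspa1b had no probe under its own name, and 2 of the 4 Hspa1a probes also list an Hspa1b transcript. Male C57BL/6J mice, 8 to 12 weeks old by the labels and of a single age within that range by the methods, were either sham operated or occluded on the right side with an intraluminal filament under sevoflurane, and all of them received 1 µl into the ventricle, with 1 pmol PACAP38 or as saline alone. The right, ischemic hemisphere was taken at 6 h or 24 h, without the olfactory bulb and cerebellum according to the methods, and RNA of 3 mice was pooled for each of the 8 combinations of surgery, injection and time. Occluded mice had been selected for neurological grades 1 and 2, and sham mice at random. Each of the 4 pairs of a PACAP38 and a saline pool was hybridized to 2 arrays with exchanged dyes, array 1 with PACAP38 in Cy5 and array 2 with PACAP38 in Cy3. The same pooled RNA was on both arrays, so that their difference measures the assay and not the mice.

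Heat shock proteins bind unfolded proteins and hold, refold or hand them over for degradation. In the cytosol HSP70 proteins work with J-domain partners such as Dnajb1, which stimulate their ATPase, and with nucleotide exchange factors such as Bag3, while small heat shock proteins hold unfolded chains without ATP. Heat shock factor 1 drives the inducible members through heat shock elements in their promoters, and Hspa1a is a widely used marker of stressed tissue around a brain infarct. Hspa5 belongs to the separate unfolded protein response of the endoplasmic reticulum, and Hspd1 with Hspe1 forms the folding chamber of mitochondria.

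The windows of 250 bases before the start of the inducible genes, from RefSeq on GRCm38.p6, are shown because the members differ in the elements they hold. Capitals mark the heat shock element of 2 units (GAANNTTC or TTCNNGAA, which read the same on both strands), except in Hspa5, where they mark the ER stress element (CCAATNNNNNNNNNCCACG, either strand). The windows lie at chr17:34972157-34972406 on the minus strand for Hspa1a, chr5:135887669-135887918 on the plus strand for Hspb1 and chr2:34771840-34772089 on the plus strand for Hspa5. The Hspd1 and Hspe1 genes lie head to head, and for them 30 bases around the shared element are given, at chr1:55088053-55088082 on the plus strand.
Hspa1a: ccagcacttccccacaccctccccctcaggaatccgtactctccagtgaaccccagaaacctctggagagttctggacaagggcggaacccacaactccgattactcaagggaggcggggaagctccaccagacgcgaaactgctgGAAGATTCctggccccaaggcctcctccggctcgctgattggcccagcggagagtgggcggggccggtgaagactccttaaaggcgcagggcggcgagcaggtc
Hspb1: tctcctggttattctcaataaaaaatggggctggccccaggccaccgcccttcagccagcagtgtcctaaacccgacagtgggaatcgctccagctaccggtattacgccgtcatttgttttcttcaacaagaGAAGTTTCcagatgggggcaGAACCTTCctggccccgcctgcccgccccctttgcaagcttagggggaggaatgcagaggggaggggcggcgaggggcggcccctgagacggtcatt
Hspa5: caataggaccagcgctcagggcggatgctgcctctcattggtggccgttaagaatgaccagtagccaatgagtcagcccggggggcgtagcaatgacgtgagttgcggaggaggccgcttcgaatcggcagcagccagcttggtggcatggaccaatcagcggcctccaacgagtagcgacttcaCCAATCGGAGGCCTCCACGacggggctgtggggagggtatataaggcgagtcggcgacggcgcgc
Hspe1 and Hspd1: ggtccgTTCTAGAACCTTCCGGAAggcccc

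The Hspa1a window held 1 element of 2 units, with its first base 104 bases before the start. The Hspa1b window was identical at 247 of 250 bases, so that the promoters of these neighbours are almost the same. Hspb1 had 2 elements of this kind, starting 117 and 97 bases before the start, and 12.8% of the 32851 promoters of the table held at least 1. The element between Hspe1 and Hspd1 was longer, with 18 bases and 2 overlapping matches to 3 units (GAANNTTCNNGAA or TTCNNGAANNTTC), each of which contains matches to 2 units. Only 0.466% of promoters held a match to 3 units, and 0.113% held the ER stress element that Hspa5 had once. Windows of Bag3 and Dnajb1 held none of these letters.

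The probes themselves are 60-mers, and their sequences show which transcripts share a signal. The first 2 of the lines below are the Hspa1a probes that also list an Hspa1b transcript, at chr17:33067263-33067322 and chr17:33068671-33068730 of the array design (mm7, minus strand). The third line is the 30-base stretch that the other Hspa1a probes, A_51_P117952 and A_52_P82741, have in common, so these are not independent of each other. The last lines are the Hspa8 probes, whose design coordinates lie on chromosome 5 (chr5:5787852-5787911 and chr5:5788853-5788912, minus strand) although RefSeq has Hspa8 on chromosome 9.
A_52_P52803: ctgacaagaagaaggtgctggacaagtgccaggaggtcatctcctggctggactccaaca
A_52_P304902: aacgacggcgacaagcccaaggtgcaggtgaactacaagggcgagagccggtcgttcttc
A_51_P117952 and A_52_P82741: agggaaactaaactgtctttcagttacttt
A_51_P170371: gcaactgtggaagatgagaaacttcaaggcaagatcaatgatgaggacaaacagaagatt
A_52_P12877: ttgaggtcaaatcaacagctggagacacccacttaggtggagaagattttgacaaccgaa

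Array 2 of the sham mice at 6 h stood apart. On it 10.7% of spots were marked as outliers by the scanner software, against 0.323% to 3.09% on the other arrays. The relative signals of its pools, each channel divided by its 75th percentile, correlated with array 1 at a Pearson r of 0.887 for saline and 0.881 for PACAP38, while the other 6 pools gave 0.986 to 0.996 between their arrays (across probes, which are not independent replicates). For the member probes the median difference between the arrays was 1.1 and 1.07 on the log2 scale in these sham pools and 0.124 to 0.232 in the others. Differences of PMCAO from sham at 6 h are therefore given per array, with array 1 as the value without the doubtful array, and means or counts over both arrays at 6 h include it. Marked spots were left out, and 9 of the 18 member probes lacked a value in 1 or more channels. As a check of the tissue label, 4 or 5 of 5 neuron markers were well above background on both arrays of every pool. Each time had its own slide, and slide and time therefore cannot be told apart.

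**Figure D1:**
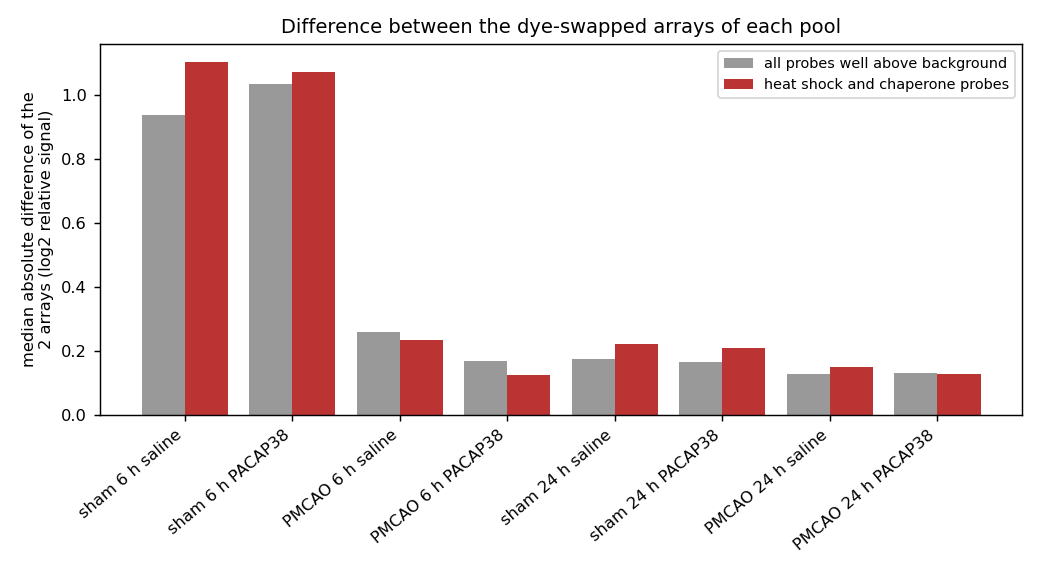
Median absolute difference (log2 relative signal) between the dye-swapped arrays of each of the 8 pools, for all probes well above background on both arrays (grey bars) and for the heat shock and chaperone probes among them (red bars). The sham pools of 6 h stand at 0.937 to 1.1 and the bars of the other pools at 0.124 to 0.259.

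Hspa1a, the inducible HSP70 of the cytosol, was far brighter in every PMCAO pool than in every sham pool. The brightest probe, A_52_P82741, had relative signals of 5.46 in the sham saline pool and 6.07 in the sham PACAP38 pool at 6 h, each on array 1 only. It reached 43.3 and 56.1 on the arrays of the PMCAO saline pool, and 114 and 115 on those of the PMCAO PACAP38 pool. At 24 h the sham pools lay at 5.80 and 5.47 with saline and at 6.49 and 4.44 with PACAP38. The PMCAO pools of 24 h lay at 46.1 and 47.6 with saline and at 22.0 and 19.6 with PACAP38. The order of the pools was thus PMCAO with PACAP38 at 6 h, then the PMCAO saline pools of both times, which overlapped, then PMCAO with PACAP38 at 24 h, and last the 4 sham pools, which also overlapped. No value of this probe in a PMCAO pool came within the range of the sham pools.

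The PMCAO over sham difference of Hspa1a was large on all 4 probes. On array 1 at 6 h it was 2.99, 3.13, 4.43 and 4.15 on the log2 scale with saline for A_52_P82741, A_51_P117952, A_52_P52803 and A_52_P304902. With PACAP38 at 6 h the same probes gave 4.24, 4.35, 4.95 and 4.49. Array 2 gave 5.35 and 3.54 with saline, and 6.01 and 3.94 with PACAP38, for A_52_P52803 and A_52_P304902, the 2 probes it measured in the sham pools. At 24 h the means of the arrays lay between 3.06 and 3.39 with saline and between 1.95 and 2.99 with PACAP38, which corresponds to 8.32-fold to 10.5-fold and 3.87-fold to 7.95-fold. Among the 23666 probes well above background in the PMCAO saline pool of 6 h the Hspa1a probes ranked 5, 14, 36 and 51 by this difference, and on array 1 alone they ranked 8, 10, 42 and 52 of 24332. Among 26865 probes at 24 h they ranked 120 to 163. The size depended on the background correction for A_52_P304902, whose difference on array 1 at 6 h with saline was 4.15 from the processed signal and 2.44 after normexp. These signals cover cells and RNA per cell together, which cannot be told apart in a whole hemisphere.

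**Figure D2:**
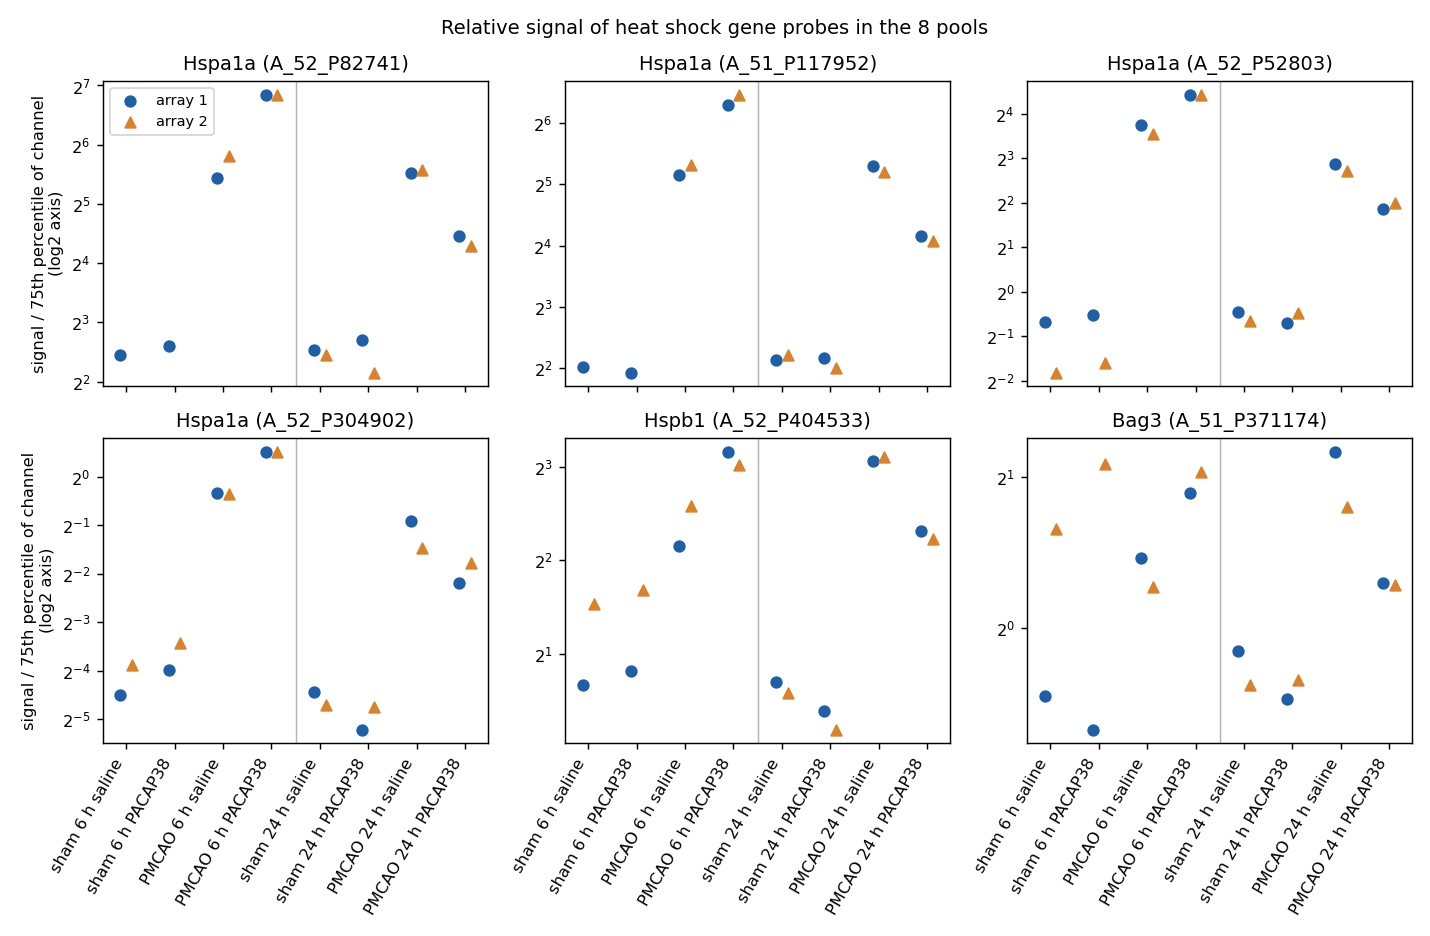
Relative signal (processed signal divided by the 75th percentile of its channel, log2 axis) of the 4 Hspa1a probes and the main Hspb1 and Bag3 probes in the 8 pools, with circles for array 1 and triangles for array 2. The Hspa1a probes separate PMCAO from sham pools throughout, with PACAP38 above saline in PMCAO at 6 h and below it at 24 h, and the triangles of the sham pools at 6 h are away from their circles.

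The partners of HSP70 showed smaller differences. Dnajb1, the J-domain protein that delivers substrates to HSP70, gave 1.01 on array 1 and 1.30 on array 2 with saline at 6 h, and 1.06 and 1.57 with PACAP38 (A_52_P171663). Its main probe A_51_P153486 gave 0.60 and 0.98 on array 1, and the means of both probes at 24 h lay between -0.0089 and 0.25. Bag3, which links HSP70 to autophagy, was 0.91 on array 1 and -0.39 on array 2 with saline at 6 h, so that the direction depended on the doubtful sham array. At 24 h both Bag3 probes were higher in PMCAO, with 1.32 and 1.18 on the arrays for A_51_P371174 with saline and 0.77 and 0.63 with PACAP38. After normexp the means of A_51_P371174 were 1.11 with saline and 0.56 with PACAP38. The second Bag3 probe, A_52_P630059, gave 1.13 with saline and 0.85 with PACAP38 on array 1 at 6 h. It was not well above background on array 2 of the sham mice at 6 h, so that the differences of 3.83 and 3.86 there rest on a sham signal that was not measured. At 24 h its means were 1.21 with saline and 0.56 with PACAP38, and 0.48 and 0.14 after normexp.

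Hspa8, the constitutive HSP70 that also uncoats clathrin vesicles, depended on the probe. A_51_P170371 gave 1.45 with saline and 1.83 with PACAP38 on array 1 at 6 h and 0.18 and 0.32 as means at 24 h. A_52_P12877 gave 0.24 and -0.14 on array 1 at 6 h and -0.15 and -0.0059 at 24 h. With the marked spots kept, the means of A_51_P170371 at 6 h dropped to 0.21 and 0.56, so that the 6 h value of this gene depended on how marked spots were treated.

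Of the small heat shock proteins, Hspb1 (HSP25, which also stabilizes actin) was higher in PMCAO in every comparison. Its probe A_52_P404533 had relative signals of 1.58 and 2.88 in the sham saline pool of 6 h, the higher on the doubtful array, and of 4.44 and 5.96 in the PMCAO saline pool. At 24 h they were 1.62 and 1.49 in sham and 8.37 and 8.61 in PMCAO with saline. The difference was 1.49 on array 1 and 1.05 on array 2 with saline at 6 h, 2.34 and 1.34 with PACAP38 at 6 h, 2.37 and 2.53 with saline at 24 h, and 1.93 and 2.04 with PACAP38 at 24 h. A second probe under this name, A_52_P88910, lies on chromosome 13 of the design, while RefSeq has Hspb1 on chromosome 5, and it was not well above background in any of 16 channels. Cryab, a small heat shock protein abundant in oligodendrocytes and lens, was lower in PMCAO at 24 h, with means of -0.28 and -0.57 for its probes with saline and -0.54 and -0.55 with PACAP38. At 6 h array 1 gave 0.26 and 0.48 with saline and 0.10 and -0.05 with PACAP38, and array 2 gave 1.48 and 1.42 for A_51_P504423, the probe it measured.

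The mitochondrial and endoplasmic reticulum chaperones lay within the thresholds at 24 h, and at 6 h their values depended on the array. Hspd1, the chaperonin HSP60, lay at -0.02 on array 1 and -1.34 on array 2 with saline at 6 h (A_51_P282706) and at a mean of -0.05 at 24 h. With PACAP38 at 6 h the arrays gave 0.31 and -0.94, and the second probe, A_52_P1172972, gave -0.42 with saline and 0.19 with PACAP38 on array 1. The relative log2 signal of Hspd1 A_51_P282706 in the sham saline pool of 6 h was 4.84 on array 1 and 6.24 on array 2. The latter lay outside the 4.75 to 5.30 of the PMCAO pools and the sham pools of 24 h. Hspe1, its co-chaperonin, was measured at 6 h on array 2 alone, which gave -1.85 with saline and -1.35 with PACAP38, and there is no value without that array. These values depended on the processing, with -0.49 and -0.046 after normexp and -0.67 and 0.016 with marked spots kept. At 24 h Hspe1 gave -0.02 with saline and 0.24 with PACAP38, and Hspd1 gave 0.35 and 0.43 with PACAP38 on its probes. Hspa5 (BiP), the HSP70 of the endoplasmic reticulum, was marked on both sham arrays at 6 h and had no value there. Its means at 24 h were -0.08 with saline and -0.13 with PACAP38, and the single arrays lay between -0.18 and 0.02.

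**Figure D3:**
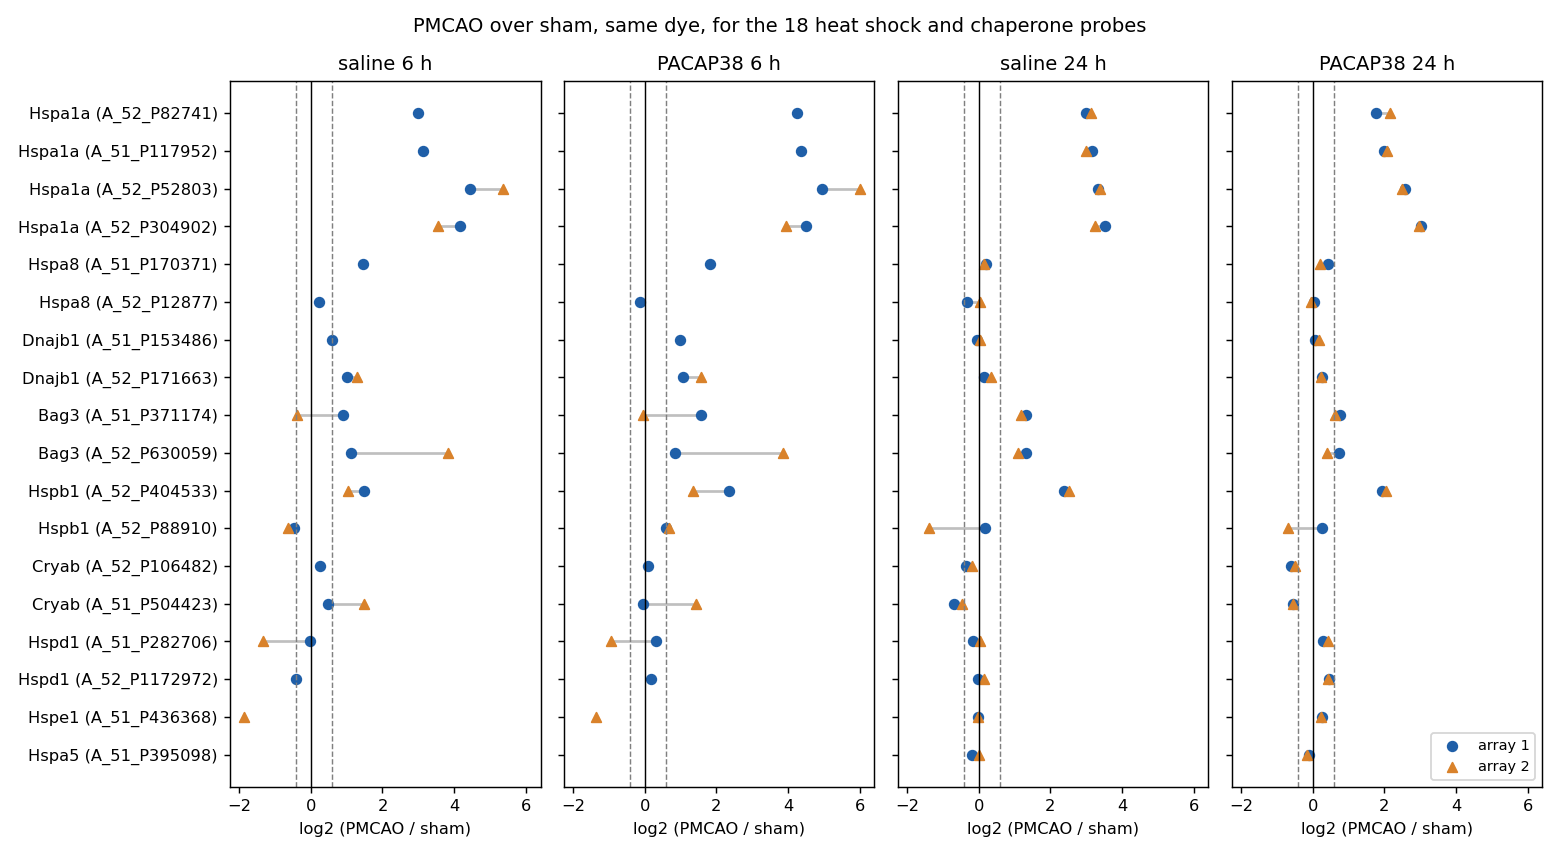
Log2 ratio of PMCAO over sham in the same dye for the 18 probes, in 4 panels for the injection and time, with circles for array 1, triangles for array 2 and dashed lines at 1.5-fold and 0.75-fold. The Hspa1a probes lie at 1.76 or higher in all panels, and at 6 h the arrays of several other probes are far apart.

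Past the fold thresholds of the study (above 1.5-fold or below 0.75-fold for the mean of the arrays), 10 of 17 measured member probes were above and 4 below with saline at 6 h, where 18.2% of all probes were above and 33.9% below. With PACAP38 at 6 h there were 12 above and 1 below, against 16% and 28.8%. On array 1 alone, without the doubtful sham array, 10 of 16 were above and 2 below with saline, against 17.2% and 16.9%, and 11 above and 0 below with PACAP38, against 17.9% and 10.2%. On array 2 alone 6 of 10 were above and 3 below with saline, against 22% and 50.7%, and 7 above and 2 below with PACAP38, against 20.8% and 45.2%. At 24 h 7 of 18 were above and 2 below with saline (9.56% and 13.3% of all probes), and 6 above and 2 below with PACAP38 (6.39% and 8.19%). Above at 24 h were the 4 Hspa1a probes, Hspb1 A_52_P404533 and Bag3, with both of its probes after saline and with A_51_P371174 after PACAP38. After normexp, Bag3 A_52_P630059 with saline (0.48) and A_51_P371174 with PACAP38 (0.56) were no longer past the threshold. Below at 24 h were Cryab A_51_P504423 and the Hspb1 probe without signal after saline, and both Cryab probes after PACAP38. The median over the members was 0.98 with saline and 0.98 with PACAP38 at 6 h and 0.12 and 0.34 at 24 h, beside -0.13, -0.06, 0.02 and 0.03 over all probes. On array 1 alone at 6 h it was 0.96 and 1.02, beside 0.11 and 0.08. Genes with several probes count more than once here, and with 1 main probe per gene 4 of 8 were above with saline at 6 h and 3 of 9 at 24 h.

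A test across pools used the 4 pairs of PMCAO and sham pools as replicates. With limma on the 4 log2 differences and time as a random block (correlation 0.671), 0.0% of 40508 probes passed an adjusted p of 0.05, 0 of 17 member probes among them, and 3697 had an unadjusted p under 0.05. The mean of Hspa1a over the 4 pairs was 3.61 (SE 0.30) for A_52_P304902, with the lowest unadjusted p of all probes (limma, 1.95e-05) and an adjusted p of 0.419. That place depended on the background correction. After normexp the mean of this probe was 2.16 (SE 0.39), and its unadjusted p (limma, 0.0022) ranked 140. For A_52_P52803 limma gave 4.06 (SE 0.59), and for A_51_P117952 and A_52_P82741 it gave 3.15 and 3.06 (SE 0.60 and 0.61), with an adjusted p of 0.517 for all 3. Hspb1 was at 1.89 (SE 0.33) with the same adjusted p of 0.517 from limma, and each of these 5 probes was higher in all 4 pairs. When the pools were fitted channel by channel with surgery, time and injection in 1 model, 2.55% of 36121 probes were called higher. This fit also called 888 probes lower, and 32.3% had an unadjusted p under 0.05 in limma. It counted the saline and PACAP38 pools of a pair as separate replicates of surgery, with an estimated correlation of -0.21. The blocked fit had put the correlation of the 2 differences of 1 time at 0.671, so the 2 fits rest on different assumptions. The 4 member probes called higher in the channel fit were Hspa1a A_52_P304902 (limma, adjusted p = 0.0111) and A_52_P52803 (0.0186), Hspb1 A_52_P404533 (0.0211) and Bag3 A_52_P630059 (0.043). The call of Bag3 A_52_P630059 includes its sham signals on array 2 at 6 h, which were not well above background. The other Hspa1a probes were not in that fit for want of a value. With array 1 alone at 6 h limma called 0 probes and the smallest adjusted p was 0.358, with 3.76 (SE 0.29) for A_52_P304902, 3.81 (SE 0.46) for A_52_P52803 and 2.07 (SE 0.24) for Hspb1.

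PACAP38 over saline in the PMCAO mice had opposite signs at the 2 times for Hspa1a. At 6 h the arrays gave 1.39 and 1.03 on the log2 scale for A_52_P82741, 1.13 and 1.14 for A_51_P117952, 0.66 and 0.88 for A_52_P52803, and 0.84 and 0.85 for A_52_P304902. All 4 probes were thus higher with PACAP38 on both arrays, by 1.70-fold to 2.31-fold as means. At 24 h the arrays gave -1.06 and -1.26, -1.13 and -1.11, -0.998 and -0.709, and -1.28 and -0.30 for the probes in the same order. The means were 0.448-fold to 0.580-fold, and the arrays of A_52_P304902 were apart by more than those of the others. In sham mice the values of these probes lay between -0.09 and 0.51 at 6 h and between -0.79 and 0.17 at 24 h, where the 2 arrays had opposite signs for 3 of the 4 probes. In both sham comparisons A_52_P304902 gave the value farthest from 0, with means of 0.48 and -0.41 that became 0.027 and -0.13 after normexp and loess.

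Hspb1 and the main Bag3 probe had the same pair of signs in the PMCAO mice. Hspb1 gave 0.99 and 0.44 at 6 h and -0.74 and -0.86 at 24 h, as means 1.64-fold and 0.573-fold. In the sham mice it gave 0.15 and 0.15 at 6 h and -0.31 and -0.38 at 24 h. Bag3 (A_51_P371174) gave 0.42 and 0.76 at 6 h and -0.86 and -0.49 at 24 h, while its sham arrays had opposite signs at both times. The second Bag3 probe, A_52_P630059, gave -0.04 and 0.35 at 6 h and -0.83 and -0.31 at 24 h.

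The other members were within the thresholds as means of both arrays in PMCAO, except Cryab A_52_P106482 at 24 h. Hspd1 was a little higher with PACAP38 in PMCAO at both times, with 0.37 and 0.39 at 6 h and 0.47 and 0.38 at 24 h for A_51_P282706, and between -0.03 and 0.05 on the 4 sham arrays. Its second probe gave 0.75, which is 1.68-fold, on the 1 array that measured it at 6 h and 0.34 and 0.46 at 24 h. Hspe1 gave 0.33 on 1 array at 6 h, and 0.47 and 0.09 at 24 h. Dnajb1 gave 0.22 and 0.69 at 6 h for A_52_P171663 and 0.46 on 1 array for A_51_P153486, with 0.09 and 0.12 at 24 h for the latter and -0.31 and 0.28 for the former. Hspa5 gave 0.62 and 0.19 at 6 h and -0.24 and -0.11 at 24 h. Cryab A_52_P106482 gave -0.39 and -0.55 at 24 h, whereas A_51_P504423 gave -0.24 and 0.20. The Hspa8 probe A_51_P170371 lay between 0.10 and 0.25 on the 4 PMCAO arrays, and A_52_P12877 gave -0.0042 on 1 array at 6 h and -0.28 and 0.58 at 24 h.

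**Figure D4:**
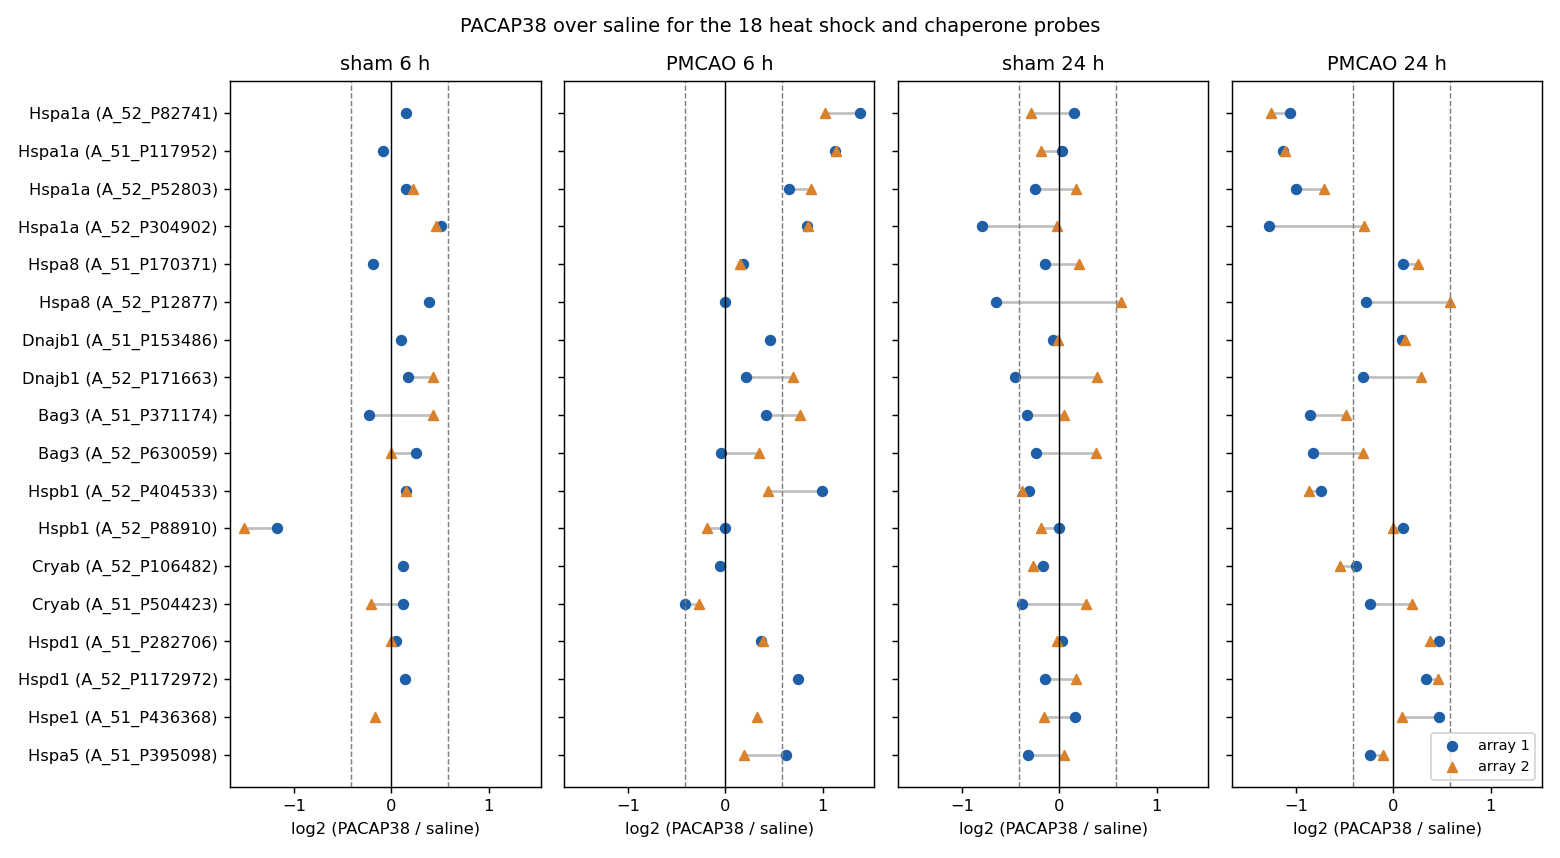
Log2 ratio of PACAP38 over saline for the 18 probes in the 4 comparisons, with circles for array 1 (PACAP38 in Cy5), triangles for array 2 (PACAP38 in Cy3) and dashed lines at 1.5-fold and 0.75-fold. In PMCAO the 4 Hspa1a probes, Hspb1 A_52_P404533 and Bag3 A_51_P371174 lie right of 0 on both arrays at 6 h and left of 0 on both at 24 h.

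For the mean of the arrays, 6 of 13 member probes with both arrays were above 1.5-fold in PMCAO at 6 h and 0 below 0.75-fold, beside 5.41% and 6.90% of all probes. They were the 4 Hspa1a probes, Hspb1 A_52_P404533 and Bag3 A_51_P371174, the last at 1.504-fold, and it was no longer past the threshold after normexp and loess (0.49 in place of 0.59 on the log2 scale). In PMCAO at 24 h 0 of 18 were above and 8 below, beside 2.99% and 8.18%, and the second Bag3 probe and Cryab A_52_P106482 joined the same 6, the Bag3 probe not after normexp and loess (-0.32 in place of -0.57). Past the threshold on both arrays there were 4 above at 6 h, all of Hspa1a, against 1.14% of all probes, and 5 below at 24 h against 3.75%, which were 3 of Hspa1a, Hspb1 A_52_P404533 and Bag3 A_51_P371174. In sham mice at 6 h 0 of 9 were above and 1 below (3.98% and 7.48%), which was the Hspb1 probe that was nowhere above background, and at 24 h 0 of 18 were past either threshold (1.75% and 3.87%). On single arrays of sham at 24 h there were 0 above and 3 below on array 1 (4.0% and 10.2% of all probes) and 1 above and 0 below on array 2 (7.28% and 8.82%). Member medians were 0.45 in PMCAO at 6 h and -0.10 in PMCAO at 24 h, 0.13 and -0.05 in sham, and the median over all probes was 0 in each comparison. These are single pairs of pools, so no test within a comparison was possible, and the PMCAO over sham comparisons share their pools with them.

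Over the 4 pairs of pools limma called 0.0% of 36121 probes for PACAP38 over saline, with 1782 at an unadjusted p under 0.05, and the adjusted p of the 9 members in the fit was 0.871 or higher. The mean of Hspa1a A_52_P304902 was 0.03 (SE 0.34) and that of Hspb1 -0.07 (SE 0.29), as the signs of the 2 times cancelled. When the response of 24 h was set against that of 6 h over sham and PMCAO together, limma again called 0.0% and 1775 probes had an unadjusted p under 0.05. The difference was -1.26 (SE 0.28) for Hspa1a A_52_P304902, -0.92 (SE 0.52) for A_52_P52803, -1.01 (SE 0.38) for Hspb1 and -0.75 (SE 0.38) for Bag3 A_51_P371174, each with an adjusted p of 0.834 in limma. The response in PMCAO against sham gave 0.0% called and 2108 probes at an unadjusted p under 0.05, with -0.01 (SE 0.28) for Hspa1a A_52_P304902 and 0.39 (SE 0.06) for Hspd1 A_51_P282706 (limma, adjusted p = 0.784). These fits had 1 residual degree of freedom, and A_52_P82741 and A_51_P117952 could not be fitted because they were marked on array 2 of the sham mice at 6 h.

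Markers of other cells and tissue differed beside Hspa1a. Of 5 neutrophil markers (S100a8, S100a9, Ngp, Camp, Lcn2), 5 were below 0.75-fold on both arrays with PACAP38 in PMCAO at 24 h, with a median of -2.91. Ngp was not well above background in the PACAP38 pool and Camp in neither pool. The mean relative log2 signal of the list was -0.59 in the PMCAO saline pool of 24 h and -2.83 in the PACAP38 pool. At 6 h it was -2.34 and -2.02 in the PMCAO pools, where as means 2 of the 5 were above 1.5-fold with PACAP38 and 1 below 0.75-fold, with Ngp and Camp not well above background. Against sham, 5 of the 5 were above 1.5-fold as means at 24 h with saline and 4 with PACAP38. Over the 4 sham pools it was -4.97 to -3.52. The part of these cells in the Hspa1a, Hspb1 and Bag3 values was not tested. The cerebellum list had a mean of -0.0055 in the PMCAO PACAP38 pool of 6 h and of -2.17 to -1.04 in the other 7 pools, and its gene Gabra6 was well above background on both arrays of that pool and on neither array of its saline pool. Cbln1, Pcp2 and Zic1 were 1.26-fold, 1.34-fold and 1.28-fold with PACAP38 there, within the threshold, and Cbln3 was not well above background in the saline pool. Whether tissue content bears on the PACAP38 value of Hspa1a at 6 h was not tested. Of 5 pituitary markers, 1 was above and 2 below on both arrays with PACAP38 at 24 h, in PMCAO and in sham alike. The 2 below were Prl and Gh, and Gh was well above background on 0 arrays in sham and on 1, with saline, in PMCAO. Prl was well above background on both arrays of the saline pools of 24 h and on no array of the PACAP38 pools, and Cga was higher with PACAP38, by 1.78 in PMCAO, and in sham from a saline signal not well above background. Of 5 endothelial markers, 3 were below 0.75-fold as means with PACAP38 in PMCAO at 24 h and 1, Pecam1, on both arrays (0.647-fold). The part of these tissues in the values of 24 h was not tested. Of the neuron markers, the 4 measured on both arrays lay between -0.33 and -0.0060 for PACAP38 over saline in PMCAO at 6 h, and all 5 between -0.08 and 0.12 at 24 h. In the same comparison at 24 h, 1 of 5 oligodendrocyte markers was below 0.75-fold as a mean and 0 on both arrays, with a median of -0.35. On both arrays 1 of 5 microglia markers was below, and 0 of the astrocyte and choroid plexus markers. The part of these cells in the Cryab values was not tested.

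A wider list of 79 chaperone, co-chaperone and heat shock factor genes, all on the array, gave few calls. In both dyes, 5 of 42 genes measured so were above and 2 below with saline at 6 h (8.51% and 12.4% of all probes), and 1 above and 4 below with PACAP38 (4.94% and 5.99%). At 24 h 4 of 79 were above and 6 below with saline (5.74% and 7.57%), and 2 above and 1 below with PACAP38 (3.13% and 3.20%). The median of the list was between -0.18 and -0.0093 in the 4 comparisons. Fkbp5, an HSP90 co-chaperone that glucocorticoids induce, was 2.78-fold higher in PMCAO at 24 h with saline and 2.78-fold with PACAP38, while at 6 h it gave 1.08 and 0.30 on the arrays with saline and -1.06 and -0.74 with PACAP38. Hspb6, a small heat shock protein known from muscle, was 2.71-fold and 2.00-fold, and Hspb8, a partner of Bag3, was 1.99-fold and 1.40-fold at 24 h. Hspa1l, which lies beside Hspa1a, was 2.03-fold and 1.34-fold at 24 h, and Hspa12b was 0.677-fold and 0.821-fold at 24 h, with -0.80 and -1.45 on the arrays with saline at 6 h. Hspbp1, which removes nucleotide from HSP70, gave 0.65 on array 1 and 2.56 on array 2 with saline at 6 h but between -0.10 and 0.09 on the 24 h arrays.

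With PACAP38 over saline, 0 of 46 genes of the list were past the thresholds on both arrays in the sham mice of 6 h (0.79% above and 1.04% below over all probes) and 0 of 79 in those of 24 h (0.226% and 0.892%). In the PMCAO mice of 6 h 0 of 66 were above and 1 below (1.14% and 1.63%), which was Fkbp5 at 0.603-fold, against 1.25 and 0.47 on the log2 scale in the sham arrays of 6 h. In PMCAO at 24 h 1 of 79 was above and 2 below (0.823% and 3.75%). Hspb3 was 1.90-fold, Hspa1l 0.665-fold and Serpinh1, the collagen chaperone HSP47, 0.685-fold. Hsf1, the factor that drives the heat shock response, gave -0.06 and -0.11 at 6 h and 0.02 and -0.06 at 24 h in PMCAO. For PMCAO over sham it gave 0.11 with saline and 0.08 with PACAP38 at 24 h, and at 6 h its arrays had opposite signs, with 1.17 and -3.62 with saline.

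The genes whose levels followed Hspa1a most closely were found by the Pearson correlation of their relative log2 signal with A_52_P82741 over the 8 pools, among 7315 genes with an SD of 0.5 or more. They were a transcript named TC1507087 (r = 0.979), Dao (r = 0.977), Cd14 (r = 0.972), Ccl4 (r = 0.970) and Errfi1 (r = 0.968). Dao was well above background in 0 of 8 sham channels and TC1507087 in 3 of 8, so that their r rests in part on sham signals at background. Cd14 is a receptor for bacterial lipopolysaccharide on myeloid cells, Ccl4 a chemokine and Errfi1 an inhibitor of the epidermal growth factor receptor. Cd14 stood at -1.79 to -1.32 in the sham pools, at 1.81 and 2.16 in the PMCAO pools of 6 h and at 2.35 with saline and 0.09 with PACAP38 at 24 h. The pools form 2 clusters by surgery and share their arrays, and r is given as a description only. Among the members, r to A_52_P82741 was 0.983 to 0.997 for the other Hspa1a probes, 0.938 for Hspb1, 0.867 and 0.957 for Bag3, 0.726 and 0.894 for Dnajb1, and 0.826 for the Hspa8 probe A_51_P170371. For Cryab, Hspd1, Hspe1 and the Hspa8 probe A_52_P12877 it was -0.40 to 0.23. The sham levels of 6 h behind these r include the doubtful array 2 where it measured the probe. Bag3 A_52_P630059, with r of 0.957, was not well above background on that array. At 6 h the sham levels of Hspe1 came from array 2 alone and those of A_52_P82741 from array 1 alone.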

How the data were processed

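The 8 pools of 3 mice were measured on 8 dual-colour Agilent arrays, 2 dye-swapped arrays for each of 4 pairs. The authors deposited Feature Extraction output (9.5.1.1 for 6 h and 9.5.3.1 for 24 h per the file headers). Its deposited log10 ratio is Cy5 over Cy3 after background subtraction and dye normalization by the software, and its deposited intensity columns hold the processed, mean and background signal of each spot. A deposited table of processed Cy5 over Cy3 ratios, given as scores with a minus sign before them on the arrays with PACAP38 in Cy3, was used as an alternative. The files' outlier and background flags were used as deposited.

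Control and marked spots were left out and the spots of a probe averaged. PACAP38 over saline was the log10 ratio as log2, turned where PACAP38 was Cy3, with the 2 arrays averaged. PMCAO over sham was the difference, in the same dye and time, of log2 processed signal minus the 75th percentile of its channel. The labels number the arrays as separate pools, while the methods give the same RNA on both, so they counted as 1 replicate. Nothing within a pair of pools was tested. limma 3.58.1 under R 4.3.3 was run over the 4 pairs, with Benjamini-Hochberg adjustment over all probes, and when 1 pair was left out the block correlation of the full fit was kept. In simulated data limma recovered 200 of 200 probes changed by 3 on the log2 scale in each of the 4 fits, with 1, 9, 16 and 12 false calls, and with a single SD for all probes in the 2 fits of the response. The simulated SD of a probe was held at or below the median SD of the data, and the simulated block correlation was below that of the data. The simulation was therefore easier than the data and does not give the power for probes with a larger spread. The number of arrays limits the precision of the assay, and 1 pool of 3 mice per group limits what the values say about mice.

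Members and lists were chosen with earlier results of these data known. Named were all member probes, for each kind of comparison up to 6 other chaperones that passed the threshold on each of the arrays and whose brighter group was well above background, and the 5 genes most like Hspa1b, for which the main (brightest) probe of Hspa1a stood in since Hspa1b had none. Promoters for 8 of the 10 members were in the RefSeq table.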

Additional observations from a re-analysis of the deposited data

Results flagged for a closer look

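For 7 member probes, both arrays of the PMCAO mice were higher with PACAP38 at 6 h and lower at 24 h. The share of all probes with this pair of signs was not counted, so the number is a description only. The log2 value of 6 h minus that of 24 h was 2.37 for Hspa1a A_52_P82741, 2.25 for A_51_P117952, 1.62 for A_52_P52803 and 1.63 for A_52_P304902. It was 1.52 for Hspb1 A_52_P404533, 1.26 for Bag3 A_51_P371174 and 0.579 for Hspa5, whose means of 0.41 and -0.17 were within the thresholds. In the sham mice both arrays also had opposite signs at the times for Hspa1a A_52_P304902, with a difference of 0.891, and for Hspb1 A_52_P404533, with 0.499. The former rested on 0.48 and -0.41, which were 0.027 and -0.13 after normexp and loess. At 24 h Dnajb1 A_51_P153486 was below 1 on both sham arrays and above 1 on both PMCAO arrays, a difference of -0.144. Within PMCAO or within sham these differences were not tested, since each comparison is 1 pair of pools and its arrays share the RNA.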

How the results depend on the processing

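No paired analysis was possible because the numbers in the labels mark the dye orientations of the same pooled RNA, which were averaged. With 1 main probe per gene, the counts past the threshold became 3 for 6 (PACAP38 over saline, PMCAO 6 h), 4 for 8 (PMCAO 24 h) and 0 for 1 (sham 6 h), and for PMCAO over sham 6 for 14 and 6 for 13 at 6 h (saline and PACAP38) and 3 for 9 and 4 for 8 at 24 h. These counts take above and below together, over at most 9 genes. Shares of all probes above and below were 5.41% and 6.9%, 2.99% and 8.18%, and 3.98% and 7.48% for PACAP38 over saline, in that order. For PMCAO over sham they were 18.2% and 33.9% (saline) and 16% and 28.8% (PACAP38) at 6 h. At 24 h they were 9.56% and 13.3% (saline) and 6.39% and 8.19% (PACAP38). The sham 6 h count was also 0 with normexp and with probes well above background. Past the threshold on both arrays, PACAP38 over saline in PMCAO at 24 h gave 5 of 18, all below, where 3.75% of all probes were below. PMCAO over sham at 6 h with saline gave 5 above and 1 below of 9, against 8.51% and 12.4% of all probes. With PACAP38 it gave 6 above and 0 below of 9, against 4.94% and 5.99%. On a single array the counts were 1 and 3 for sham 24 h, in place of 0 (1 above on array 2, where 7.28% of all probes were above, and 3 below on array 1, where 10.2% were below), and 9 to 12 for PMCAO over sham with saline at 6 h, with 9 on array 2 alone (6 above and 3 below, against 22% and 50.7% of all probes). The separate-channel fit called 4 members and every other fit of PMCAO over sham 0. Among values past the threshold, signs turned for Bag3 A_51_P371174 (PACAP38 6 h, -0.047 to 1.563, the former without array 1), Cryab A_51_P504423 (PACAP38 6 h, -0.053 to 1.424, the former without array 2), Hspd1 A_51_P282706 (saline 6 h, 0.061 with normexp) and Hspe1 (PACAP38 6 h, 0.016 with marked spots kept), and the cause was not tested. Within the threshold, the arrays also differed in sign for Bag3 A_51_P371174 with saline at 6 h (0.26, -0.39 without array 1) and Hspd1 A_51_P282706 with PACAP38 at 6 h (-0.31, 0.31 without array 2). Median scaling moved the median of all probes at 6 h from -0.13 and -0.06 to -0.29 and -0.24, and keeping marked spots to 0.20 and 0.25. The value table gave 54 of 54 values within the spread of the arrays. Keeping marked spots, and array 1 alone at 6 h, were chosen after seeing the data. Spots not well above background limit the Hspb1 probe A_52_P88910 and, on sham 6 h array 2, Bag3 A_52_P630059.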
